A study of Rattus norvegicus with 12 samples.

Results

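The transcripts described here are those of the Rab GTPases, taken as every row of the deposited expression table whose gene symbol is Rab followed by a number and at most 1 letter and 1 further digit. The rule used names only, and it found 51 of 10729 genes. All 51 passed the filter on low values and were among the 10689 genes tested. The series measured polyadenylated RNA of cultured rat hippocampal neurons with and without knockdown of Grin3a, which encodes the GluN3A subunit of the NMDA receptor. It set neurons silenced with the sodium channel blocker tetrodotoxin (TTX) beside neurons released from that block, when action potentials return. Each of 4 groups had 3 libraries, read as 50 nt single ends.

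KD_TTXwd neurons carried a Grin3a shRNA in the lentiviral vector pLKO.1 and were collected 6 h after TTX was withdrawn, and Ctrl_TTXwd neurons carried the empty pLKO.1 vector and were treated in the same way. KD_TTX neurons carried the Grin3a shRNA and Ctrl_TTX neurons the empty vector, and both were collected with TTX present. All 4 groups received 1 µM TTX for 48 h. The neurons came from hippocampi of CD (Sprague Dawley) IGS rat embryos of both sexes (E18.5), and the virus was added on culture day 1, TTX on culture day 5, with RNA taken on culture day 7. A single shRNA was used, and the cultures were neuron-enriched rather than sorted. The empty vector is the control named in the labels, whereas the control columns of the deposited table are headed scr, which the sources used here do not spell out. GEO names the 3 libraries per group biological triplicates without saying whether they were separate preparations, and every p-value here reflects no more than the spread among them.

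Rab proteins are small GTPases that mark the membranes of the cell and direct vesicle traffic between them. Exchange factors (GEFs) load a Rab with GTP, which lets it bind effectors such as tethers and motor adaptors; GTPase-activating proteins (GAPs) return it to the GDP form, and a lipid tail holds it on the membrane. In neurons the Rab3 members sit on synaptic vesicles, Rab5, Rab4 and Rab11 carry receptors through early and recycling endosomes, and Rab7 leads to the lysosome.

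Grin3a, the targeted gene, ranged over 2.50 to 5.22 FPKM in KD_TTXwd, 4.88 to 19.8 in Ctrl_TTXwd, 4.77 to 9.30 in KD_TTX and 18.2 to 23.0 in Ctrl_TTX (FPKM, fragments per kilobase of transcript scaled to the mapped total, as the authors deposited it). The lowest control value belongs to the library labelled Ctrl_TTXwd replicate 3, at 4.88 FPKM, which lies within the knockdown range. That library also held the lowest summed level of 8 neuron markers, 904 FPKM against 1924 to 3920 in the other 11, and the highest of 14 microglia markers, 2452 FPKM against 60.2 to 1003. Ctrl_TTX replicate 1 stood apart in another way: its lowest value in the table was 1.00 FPKM, whereas every other library reached 0 or 0.0436. Every gene counted here, Rab or other, therefore stood at 1.00 FPKM or above in that library. It belongs to the reference group for withdrawal in control neurons and for knockdown in TTX. Whether the deposited genes, and with them the shares of all genes, were selected on that library was not tested. The summed Rab level was 5600 FPKM in that library and 3028 to 3909 FPKM in the other 11. Ctrl_TTX replicate 1 also held the highest sum of 7 astrocyte markers, 3076 FPKM, followed by KD_TTX replicate 1 at 2916 FPKM. The remaining libraries ranged over 768 to 2408 FPKM, and the part of these markers in the Rab results was not tested. Fewer cells of a type and less RNA per cell cannot be told apart in such bulk samples.

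The Rab transcripts were somewhat more abundant than the rest of the table, with a median of 31.8 FPKM over the 12 libraries against 19.1 FPKM for all genes. Together they made up 0.686% to 1.08% of the summed FPKM of a library. Of the 51, 13 averaged at least 100 FPKM, 30 lay between 10 and 100, and 8 lay under 10. Rab2a, which acts between the endoplasmic reticulum (ER) and the Golgi, was highest at a mean of 376 FPKM, followed by Rab10 at 253 and the synaptic vesicle Rab, Rab3a, at 233. Rab6a, Rab11b, Rab1a and Rab6b followed at 228, 219, 216 and 215 FPKM, closer to each other than the spread of each across libraries. Rab20, Rab27a and Rab38 were lowest, at 1.48, 4.60 and 4.63 FPKM. The coefficient of variation over the 12 libraries had a median of 26%, against 28% for all genes. It was smallest for the early endosome member Rab5b (9.70%) and largest for Rab32 (121%) and Rab8b (108%).

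**Figure D1:**
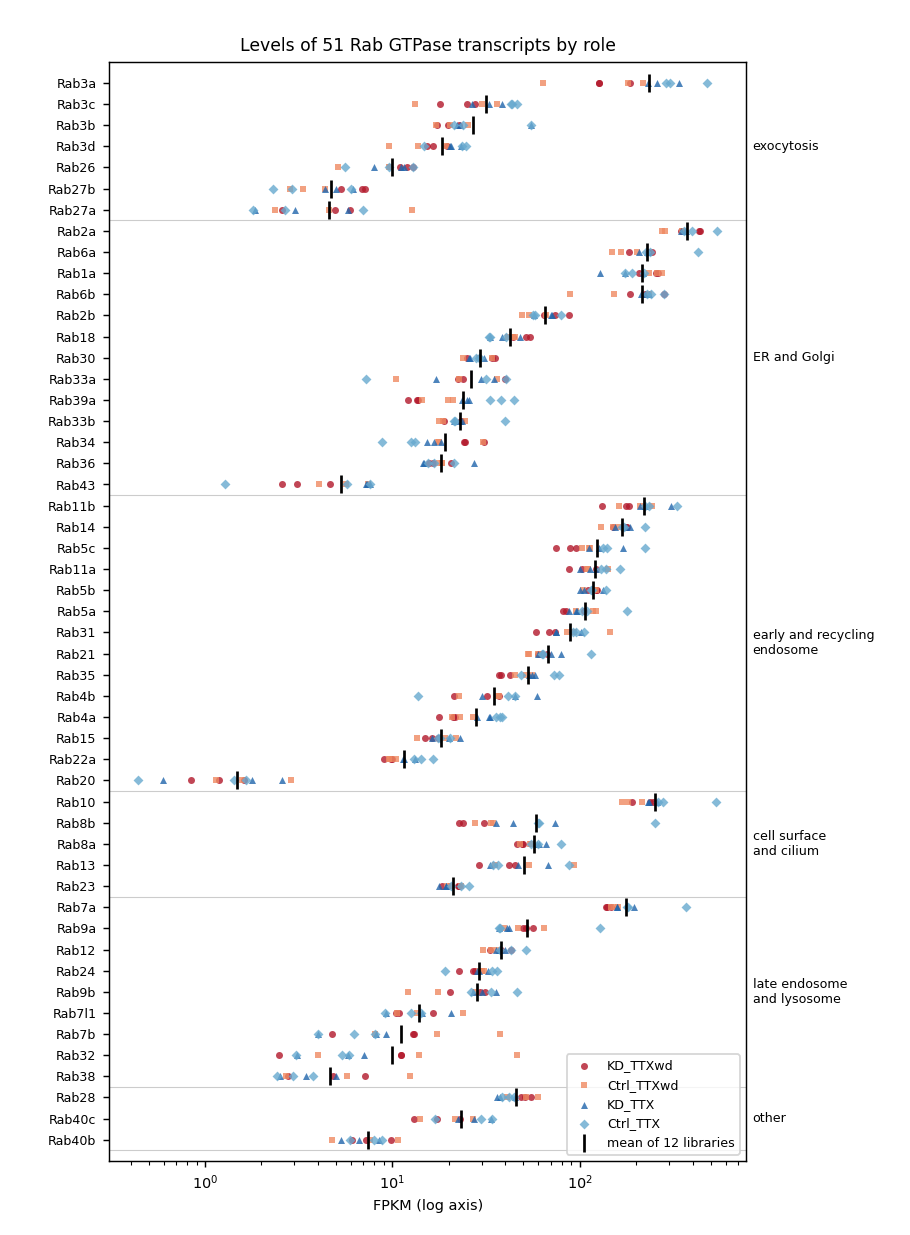
FPKM of the 51 Rab transcripts on a log axis, grouped by role, with 1 point per library coloured by group and a black bar at the mean of 12 libraries. Levels run from Rab20 at a mean of 1.48 FPKM to Rab2a at 376 FPKM, and the widest spreads belong to Rab32 and Rab8b.

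Some Rab values need care. Close relatives such as Rab6a and Rab6b or Rab11a and Rab11b share stretches of coding sequence, and how the authors treated 50 nt reads that match more than 1 of them is not stated. The locus given for Rab5a, the master Rab of early endosomes, spans 648 bp on chromosome 14 in the deposited table (rn5), whereas RefSeq places the gene on chromosome 9 of GRCr8 with a span of 29400 bp. The Rab5a values are therefore uncertain. Of the 50 members whose transcript is in RefSeq, the other 49 lie on the same chromosome in both.

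Release from TTX lowered 2 Rab transcripts in knockdown neurons, Rab39a and Rab4a, and none rose, against 4.95% of all genes that rose (limma, adjusted p under 0.05). In control neurons 6 fell, Rab39a, Rab4a, Rab3a, Rab8b, Rab10 and Rab22a, and 1, Rab34, rose. The 2 called members in knockdown neurons are 3.92% of the 51, against 14.2% of all genes tested, and the 7 in control neurons are 13.7%, against 17.7% of all genes. In control neurons the 6 that fell are 11.8% of the members, against 11.1% of all genes that fell, and the 1 that rose is 1.96%, against 6.61%. In knockdown neurons both called members fell, so their share of 3.92% stands against 9.22% of all genes that fell. The share that fell was near that of all genes in control neurons and below it in knockdown neurons, where it rests on 2 genes. The median difference in knockdown neurons was -0.11 on the log2 scale for the Rabs and 0.0007 for all genes, with 31 of 51 members and 5338 of 10689 genes negative. In control neurons it was -0.19 for the Rabs and -0.01 for all genes, with 35 of 51 members and 5435 of 10689 genes negative. Of all genes called in knockdown neurons, 34.9% were higher, and that share was 50.4% after quantile normalization and 51.1% after a correction for locus span. In control neurons the share was 37.3%, and then 47.1% and 46.7%. The medians moved as well. In knockdown neurons they were -0.05 and -0.003 for the Rabs, against 0.08 and 0.08 for all genes, in the same order. In control neurons they were -0.11 and -0.20 for the Rabs, against 0.03 and 0.04 for all genes.

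**Figure D2:**
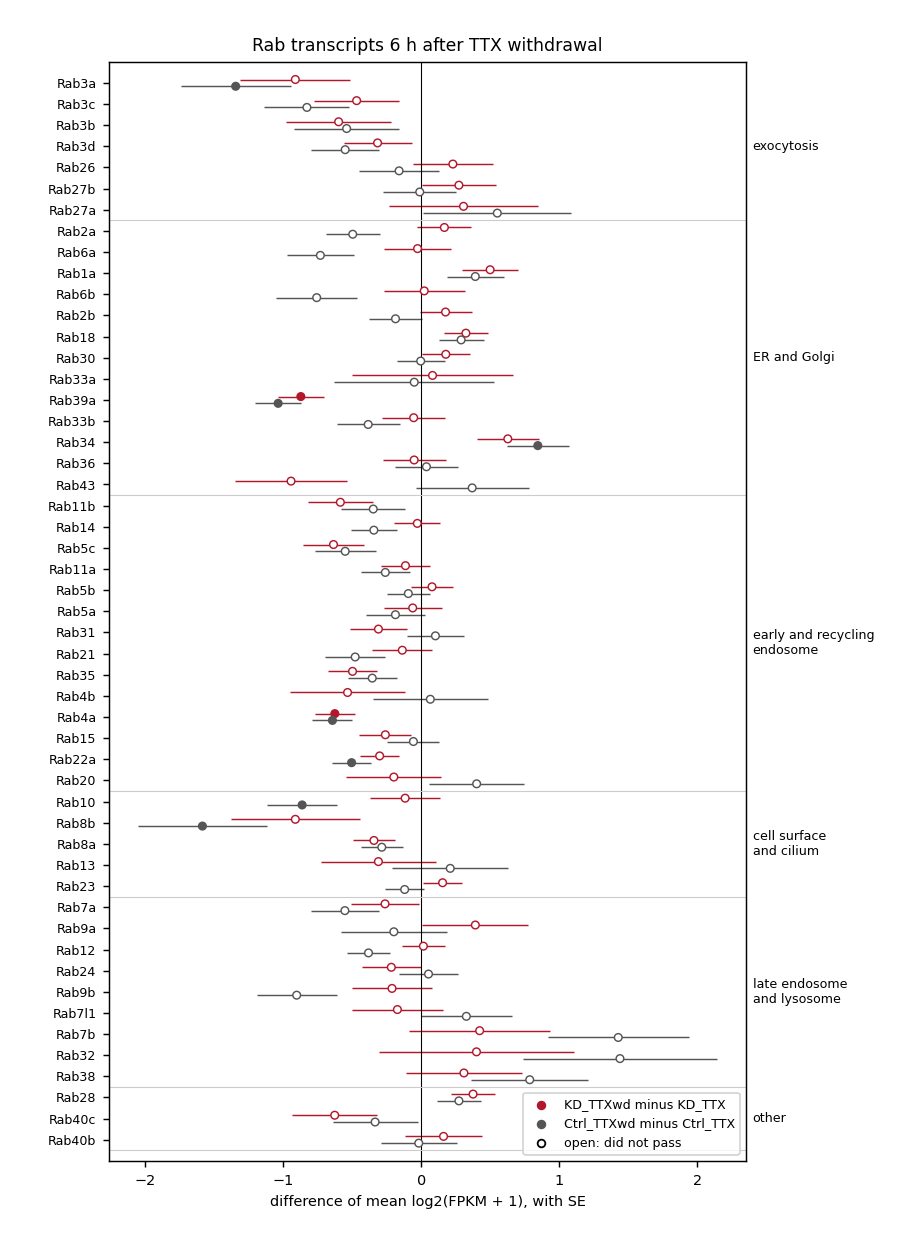
Difference of mean log2(FPKM + 1), 6 h after TTX withdrawal minus TTX, for each of 51 Rab transcripts by role, in knockdown neurons (red) and control neurons (grey), with standard errors; filled points passed the limma test. Rab39a and Rab4a are filled in both colours, and most points lie left of 0.

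Without regard to the test, 14 members had all 3 KD_TTXwd values below all 3 KD_TTX values (27.5%, against 23.7% of all genes) and 3 had them all above (5.88%, against 20.2%). In control neurons 15 members lay wholly below (29.4%, against 19.6% of all genes) and 4 wholly above (7.84%, against 16%). The authors' deposited table lists 3 members as lower in knockdown neurons (5.88%, against 19% of all genes listed as changed), and 11 as changed in control neurons (21.6%, against 22.9%), 4 higher and 7 lower (7.84% and 13.7%, against 9.03% and 13.9%). Those 3 are Rab3a, Rab5c and Rab8b, so Rab39a and Rab4a are not among them. Of the members called by limma in control neurons, Rab4a and Rab22a are not among the 11. Ctrl_TTX replicate 1 and Ctrl_TTXwd replicate 3 weigh on the limma counts. In knockdown neurons, where they enter only through the shared estimate of the spread, 12 members passed without both, 10 of them lower, 8 passed without Ctrl_TTX replicate 1 and 4 without Ctrl_TTXwd replicate 3. The count there was 1 without KD_TTX replicate 1, KD_TTX replicate 3 or KD_TTXwd replicate 1. In control neurons 3 passed without both (Rab35, Rab39a and Rab4a, all lower), and 2 without Ctrl_TTXwd replicate 3. The control count was 13 without Ctrl_TTXwd replicate 2, 3 without Ctrl_TTXwd replicate 1 or KD_TTX replicate 2, and 4 without KD_TTXwd replicate 1.

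Of the called members, Rab39a kept its call in the largest number of alternative fits. Its protein has been linked, mainly in human cells, to late endosomes, phagosomes and autophagy. Its locus lies at chr8:56857847-56874859 on the minus strand of rn5. Rab39a had 13.7, 13.5 and 12.1 FPKM in the KD_TTXwd libraries, against 23.6, 25.2 and 25.6 FPKM in the KD_TTX libraries. It had 21.0, 19.8 and 14.4 FPKM in the Ctrl_TTXwd libraries, against 44.6, 33.0 and 38.0 FPKM in the Ctrl_TTX libraries. Every library after withdrawal lay below every library in TTX, in both genotypes. On the log2 scale Rab39a fell by 0.87 in knockdown neurons (SE 0.168, limma adjusted p = 0.0090) and fell by 1.04 in control neurons (SE 0.168, limma adjusted p = 0.0047). It passed in all 12 fits that left out 1 library, in each genotype. With only the 6 libraries of a comparison, Rab39a passed in knockdown neurons and not in control neurons (limma adjusted p = 0.0762 in control). The response in knockdown neurons minus that in control neurons was 0.16 (SE 0.238, limma adjusted p = 0.779). Rab39a was listed as lower in control neurons in the authors' deposited table (log2 ratio -1.07, q = 0.0150). It was not listed as changed there in knockdown neurons (log2 ratio -0.92, q = 0.0507).

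Rab4a, which drives rapid recycling of receptors from early endosomes to the surface, also fell in both genotypes, at the locus chr19:67296401-67323424 (plus strand, rn5). Rab4a had 17.6, 21.6 and 21.0 FPKM in KD_TTXwd, against 32.9, 28.3 and 33.2 FPKM in KD_TTX. It had 23.0, 27.0 and 20.8 FPKM in Ctrl_TTXwd, against 35.9, 37.3 and 38.5 FPKM in Ctrl_TTX. The groups did not overlap in either genotype. Rab4a fell by 0.63 in knockdown neurons (SE 0.145, limma adjusted p = 0.0181) and fell by 0.64 in control neurons (SE 0.145, limma adjusted p = 0.0143). Of 12 fits that left out 1 library, it passed in 9 in knockdown neurons, all but those without KD_TTX replicate 1 or 3 or KD_TTXwd replicate 1, and in 12 in control neurons. The difference between the responses was 0.02 (SE 0.205, limma adjusted p = 0.973). Rab4a was not listed as changed in either genotype in the authors' deposited table. Its log2 ratios there were -0.65 in knockdown neurons (q = 0.0785) and -0.66 in control neurons (q = 0.0600). Its relative Rab4b differed by -0.53 in knockdown neurons and 0.07 in control neurons and passed in neither.

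The start regions of Rab39a and Rab4a, which fell in both genotypes, and of Rab34, the 1 member that rose, are printed here. Each runs from 250 bases before the annotated start to 50 bases after it, on the strand that RefSeq gives on GRCr8. Rab39a lies at chr8:63002004-63002303 (minus strand), Rab4a at chr19:68692831-68693130 (plus strand) and Rab34 at chr10:63581292-63581591 (plus strand). The deposited table places Rab34 on the minus strand of rn5, unlike RefSeq, and this difference was not resolved. Capitals mark the match to a searched motif.
Rab39a: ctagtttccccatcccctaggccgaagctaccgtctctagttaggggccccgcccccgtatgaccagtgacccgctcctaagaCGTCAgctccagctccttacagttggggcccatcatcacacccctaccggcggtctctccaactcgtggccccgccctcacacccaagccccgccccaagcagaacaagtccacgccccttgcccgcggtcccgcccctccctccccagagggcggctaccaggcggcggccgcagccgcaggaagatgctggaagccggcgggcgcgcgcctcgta
Rab4a: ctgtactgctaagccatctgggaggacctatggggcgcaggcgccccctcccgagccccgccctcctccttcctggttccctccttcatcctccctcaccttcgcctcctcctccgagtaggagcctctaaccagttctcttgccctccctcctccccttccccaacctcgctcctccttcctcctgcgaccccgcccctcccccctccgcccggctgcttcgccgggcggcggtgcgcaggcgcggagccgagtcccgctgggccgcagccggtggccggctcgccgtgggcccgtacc
Rab34: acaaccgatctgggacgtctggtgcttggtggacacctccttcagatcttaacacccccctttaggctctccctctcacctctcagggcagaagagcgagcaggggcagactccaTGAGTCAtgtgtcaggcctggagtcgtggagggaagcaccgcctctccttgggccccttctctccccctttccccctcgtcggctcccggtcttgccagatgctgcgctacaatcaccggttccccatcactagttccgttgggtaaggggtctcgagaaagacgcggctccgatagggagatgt
The capitals in Rab39a are the reverse complement of TGACG, the half-site of the cAMP response element bound by CREB, at -167 from the start. Those in Rab34 match TGANTCA, the AP-1 site, at -135. The Rab4a window matched none of the 5 motifs searched, which says only that these letters are not in this window. All motifs were searched on both strands. Besides these 2 they were TGACGTCA, the full cAMP response element, which contains the half-site, the E-box CACGTG, and the MEF2 site.

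RefSeq start regions were found for 42 members, which gave 43 sequences. The half-site TGACG was present in 14 of the 43 (32.6%), among them Rab39a and Rab3a, and in 21.2% of all 33469 start regions of the same length. The full TGACGTCA was in 0 of 43 and in 1.83% of all. TGANTCA was in 4 (9.3%, against 7.33% of all), CACGTG in 4 (9.3%, against 6.42%) and the MEF2 site in 1, Rab15 (2.33%, against 3.29%). The Rab start regions were richer in G and C, with a median of 64.3% against 51.7% in all, and their median ratio of observed to expected CpG was 0.724 against 0.392.

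**Figure D3:**
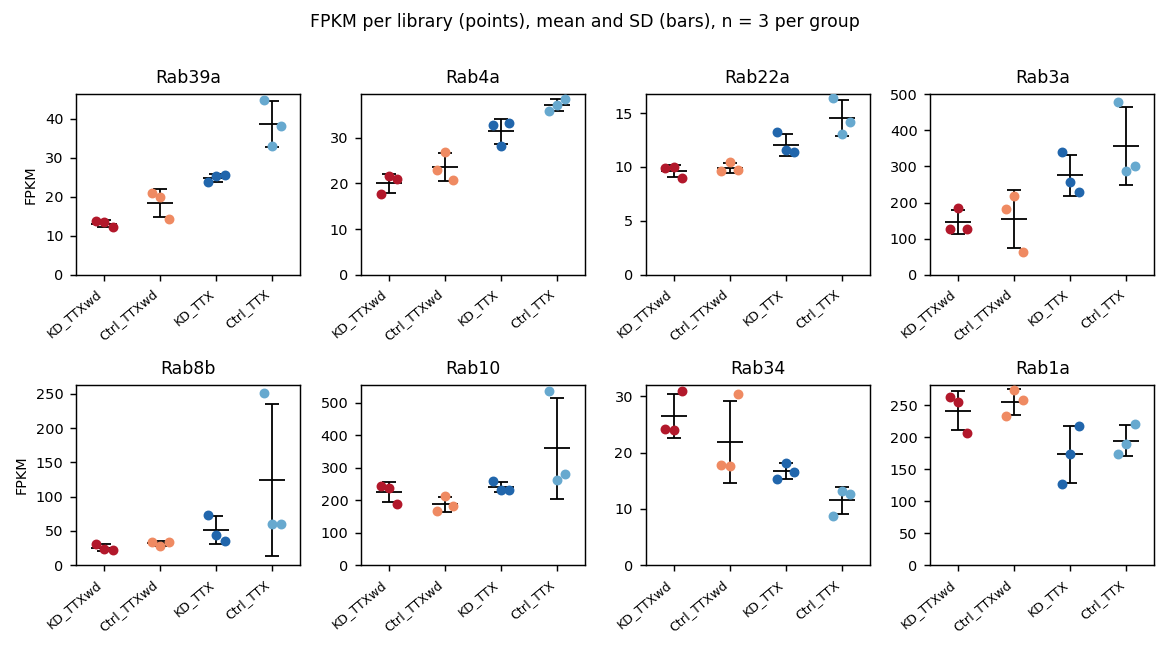
FPKM of the 7 Rab transcripts called in control neurons, and of Rab1a, in each library (points), with the mean and SD of 3 libraries per group. Rab39a, Rab4a, Rab22a and Rab3a lie lower in both groups after TTX withdrawal than in both groups with TTX, Rab34 lies higher within each genotype, and Rab8b and Rab10 have 1 Ctrl_TTX library far above the other 2.

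Among the 7 exocytosis members, Rab3a passed in control neurons and the other 6 did not. Rab3a, the main Rab of synaptic vesicles, lies at chr16:20289806-20296274 (minus strand, rn5). Rab3a had 127, 185 and 127 FPKM in KD_TTXwd, against 339.9, 257 and 230.1 FPKM in KD_TTX. It had 181, 217 and 63.8 FPKM in Ctrl_TTXwd, against 479.7, 288 and 301 FPKM in Ctrl_TTX. No library after withdrawal reached the level of any library in TTX, in either genotype. The difference in knockdown neurons was -0.91 (SE 0.399, limma adjusted p = 0.144), and in control neurons Rab3a fell by 1.34 (SE 0.399, limma adjusted p = 0.0397). In control neurons its value was -1.11 without Ctrl_TTX replicate 1 (adjusted p = 0.0988) and -0.80 without Ctrl_TTXwd replicate 3 (adjusted p = 0.0909). Of 12 fits that left out 1 library Rab3a passed in 3, those without Ctrl_TTXwd replicate 2, KD_TTX replicate 1 or KD_TTXwd replicate 2, so this call is fragile. In knockdown neurons it passed without Ctrl_TTXwd replicate 3 (-0.91, limma adjusted p = 0.0282). The authors' deposited table lists Rab3a as lower in both, with log2 ratios of -0.91 in knockdown neurons (q = 0.0032) and -1.21 in control neurons (q = 0.0010).

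Rab3c, a vesicle Rab close to Rab3a, had 30.1, 36.2 and 13.3 FPKM in Ctrl_TTXwd, against 42.9, 46.2 and 43.5 FPKM in Ctrl_TTX, a difference of -0.83 that did not pass (SE 0.308, limma adjusted p = 0.0825) and was -0.41 without Ctrl_TTXwd replicate 3 (limma adjusted p = 0.230). Its KD_TTXwd and KD_TTX values overlapped, with means of 23.5 ± 5.02 and 32.8 ± 5.97 FPKM (SD, n = 3 each). Rab3b differed by 1 library in each TTX group: it had 55.0, 23.1 and 22.2 FPKM in KD_TTX and 54.8, 23.9 and 21.3 FPKM in Ctrl_TTX, with replicate 1 high in both. Rab27b, a Rab of secretory granules, had differences of 0.27 with knockdown and -0.01 in control after withdrawal. The neuron marker sum lay lower after withdrawal in part of the libraries, at 1924 to 3430 FPKM in KD_TTXwd against 2421 to 2821 FPKM in KD_TTX, and at 904 to 3241 FPKM in Ctrl_TTXwd against 3132 to 3920 FPKM in Ctrl_TTX. The sum of 7 glutamatergic markers did not overlap, at 309 to 434 FPKM in KD_TTXwd against 517 to 643 FPKM in KD_TTX, and at 128 to 543 FPKM in Ctrl_TTXwd against 754 to 791 FPKM in Ctrl_TTX. The sum of 7 GABAergic markers overlapped in both genotypes and reached higher after withdrawal. It was 128 to 199 FPKM in KD_TTXwd against 115 to 138 FPKM in KD_TTX, and 89.3 to 270 FPKM in Ctrl_TTXwd against 92.3 to 180 FPKM in Ctrl_TTX. All 8 neuron, 7 glutamatergic and 7 GABAergic markers were listed above 0 in at least 1 library, and their part in the Rab results was not tested.

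The cell surface and cilium members Rab8b and Rab10 were the other large falls in control neurons, and both were far higher in 1 library, Ctrl_TTX replicate 1. Rab8b, which carries cargo from the Golgi and recycling endosomes to the plasma membrane, had 30.9, 23.8 and 22.7 FPKM in KD_TTXwd, against 74.0, 44.2 and 35.9 FPKM in KD_TTX. It had 34.4, 27.5 and 33.8 FPKM in Ctrl_TTXwd, against 252, 60.1 and 60.4 FPKM in Ctrl_TTX. Neither pair of groups overlapped. In knockdown neurons the difference was -0.91 (limma adjusted p = 0.209), and it passed at the same size without Ctrl_TTX replicate 1 (limma adjusted p = 0.0205). Rab8b fell by 1.58 in control neurons (SE 0.466, limma adjusted p = 0.0384), and fell by 0.90 without Ctrl_TTX replicate 1 (limma adjusted p = 0.0398). Without Ctrl_TTXwd replicate 3 its value was -1.63, which did not pass (limma adjusted p = 0.0836). Of 12 such fits it passed in 5, those without any 1 of the Ctrl_TTX libraries or without KD_TTX replicate 1 or 3. The authors' deposited table lists it as lower in both, at -0.99 in knockdown neurons (q = 0.010) and -1.96 in control neurons (q = 0.0010). Its relative Rab8a differed by -0.34 in knockdown neurons and -0.29 in control neurons and passed in neither.

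Rab10, a Rab of membrane addition in axons and of exocytosis, had 245, 238 and 189 FPKM in KD_TTXwd, against 259.5, 233 and 233 FPKM in KD_TTX. It had 167, 214 and 181 FPKM in Ctrl_TTXwd, against 537, 262 and 279 FPKM in Ctrl_TTX. The knockdown groups overlapped and the control groups did not. In knockdown neurons the difference was -0.12 (limma adjusted p = 0.80). Rab10 fell by 0.86 in control neurons (SE 0.252, limma adjusted p = 0.0379). Its value was -0.53 without Ctrl_TTX replicate 1 (limma adjusted p = 0.0529) and -0.84 without Ctrl_TTXwd replicate 3 (limma adjusted p = 0.0916). It passed in 6 of 12 such fits and also missed the threshold without Ctrl_TTXwd replicate 1, KD_TTX replicate 2, or KD_TTXwd replicate 1 or 2. The response in knockdown neurons minus that in control neurons, 0.75 (SE 0.357), did not pass (limma adjusted p = 0.510) and was 0.42 without Ctrl_TTX replicate 1.

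Ctrl_TTX replicate 1 held more than 1.5 times the mean of its fellow replicates in 16 members (31.4%, against 23.5% of all genes) and less than the inverse of that in 8 (15.7%, against 23.6%). The ratio was highest for Rab8b (4.17), Rab9a (3.43) and Rab27a (3.13) and lowest for Rab43 (0.19), Rab33a (0.20) and Rab4b (0.32). For Rab39a, Rab4a and Rab22a it lay within 1.5 times.

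**Figure D4:**
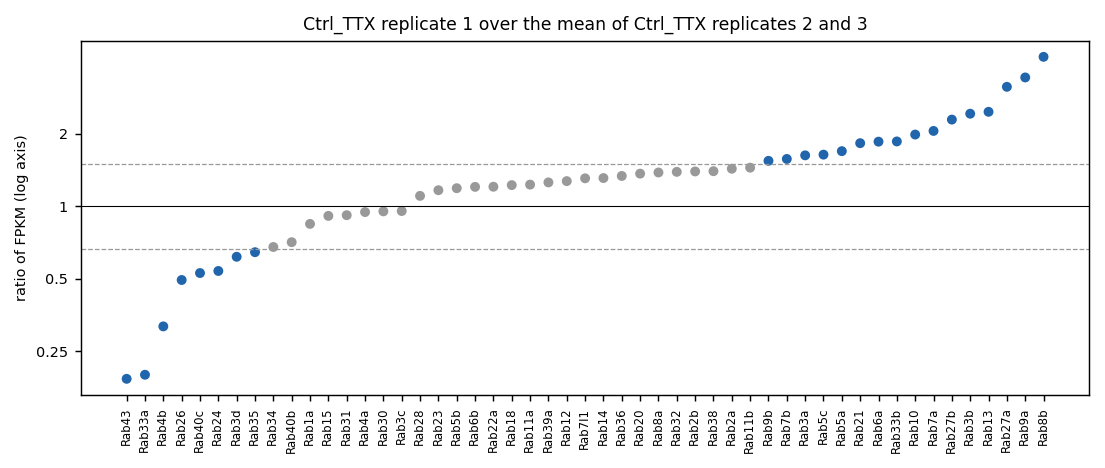
Ratio of the FPKM in Ctrl_TTX replicate 1 to the mean of Ctrl_TTX replicates 2 and 3, on a log axis, for the 51 Rab transcripts in rising order; dashed lines mark 1.5 times and its inverse, and blue points lie beyond them. Rab8b (4.17) and Rab9a (3.43) lie highest and Rab43 (0.19) lowest.

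Among the 13 members listed under ER and Golgi, Rab39a fell and Rab34 rose in control neurons, and the other 11 did not pass. Rab34, a Golgi-linked Rab that takes part in lysosome positioning and in building cilia, had 24.3, 24.1 and 31.0 FPKM in KD_TTXwd, against 15.3, 18.2 and 16.6 FPKM in KD_TTX. It had 17.8, 17.6 and 30.3 FPKM in Ctrl_TTXwd, against 8.75, 13.2 and 12.6 FPKM in Ctrl_TTX. Every library after withdrawal lay above every library of its genotype in TTX. The difference in knockdown neurons was 0.63 (SE 0.227, limma adjusted p = 0.0843), and in control neurons Rab34 rose by 0.85 (SE 0.227, limma adjusted p = 0.0278). The control value was 0.67 without Ctrl_TTX replicate 1 (limma adjusted p = 0.0610) and 0.60 without Ctrl_TTXwd replicate 3 (limma adjusted p = 0.0808). It passed in the other 10 of the 12 fits. In knockdown neurons Rab34 passed at the same size without Ctrl_TTX replicate 1 (limma adjusted p = 0.0451) and without Ctrl_TTXwd replicate 3 (limma adjusted p = 0.0319).

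Rab1a, which starts ER to Golgi transport, had 263, 255 and 206 FPKM in KD_TTXwd, against 128, 175 and 218 FPKM in KD_TTX. It had 233, 273 and 258 FPKM in Ctrl_TTXwd, against 173, 189 and 221 FPKM in Ctrl_TTX. The knockdown groups overlapped and the control groups did not, and neither difference passed (0.50 with knockdown, limma adjusted p = 0.121, and 0.39 in control, limma adjusted p = 0.198). With 1 library left out the knockdown value was as low as 0.30, without KD_TTX replicate 1. Rab6a, the Rab of Golgi retrograde traffic, averaged 173 ± 27.7 FPKM in Ctrl_TTXwd and 298 ± 115 FPKM in Ctrl_TTX (SD, n = 3 each), with 429.7 FPKM in Ctrl_TTX replicate 1. Its difference of -0.73 did not pass limma (adjusted p = 0.0578) and was -0.43 without that library (adjusted p = 0.115), whereas the authors' deposited table lists it as lower (log2 ratio -0.79, q = 0.0338).

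Of the 14 early and recycling endosome members, Rab4a fell in knockdown neurons, and Rab4a and Rab22a fell in control neurons. Of all genes 9.22% fell in knockdown neurons and 11.1% in control neurons. Differences were negative for 13 of the 14 in knockdown neurons (median -0.28), against 5338 of all 10689 genes. In control neurons they were negative for 11 of the 14 (median -0.30), against 5435 of all 10689 genes. Rab22a, which acts in endosomal recycling, had 9.86, 9.97 and 8.97 FPKM in KD_TTXwd, against 13.3, 11.6 and 11.4 FPKM in KD_TTX. It had 9.58, 10.5 and 9.70 FPKM in Ctrl_TTXwd, against 16.4, 13 and 14.2 FPKM in Ctrl_TTX. The groups did not overlap in either genotype. The difference in knockdown neurons was -0.30 (limma adjusted p = 0.171), and in control neurons Rab22a fell by 0.50 (SE 0.141, limma adjusted p = 0.0324). Without Ctrl_TTXwd replicate 3 the control value was -0.49 (limma adjusted p = 0.0744). Rab22a passed in 8 of 12 fits that left out 1 library and also missed the threshold without Ctrl_TTXwd replicate 1, Ctrl_TTX replicate 3 or KD_TTX replicate 2. It was not listed as changed in control neurons in the authors' deposited table (log2 ratio -0.55, q = 0.0925).

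Rab11a, the Rab of slow recycling, averaged 104 ± 17.4 FPKM in KD_TTXwd and 112 ± 11.1 FPKM in KD_TTX, and 121 ± 18.9 FPKM in Ctrl_TTXwd and 144 ± 18.1 FPKM in Ctrl_TTX (SD, n = 3 each), with overlap in both genotypes. Rab5a, whose values are uncertain, differed by -0.06 in knockdown neurons and -0.19 in control neurons. Rab5c, a close relative, had 75.0, 95.8 and 88.8 FPKM in KD_TTXwd, against 170.4, 126 and 112 FPKM in KD_TTX. Those groups did not overlap, and the difference of -0.63 did not pass limma (adjusted p = 0.0755), whereas the authors' deposited table lists Rab5c as lower (log2 ratio -0.66, q = 0.0429).

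None of the 9 members listed under late endosome and lysosome passed limma after withdrawal, in either genotype. Rab39a, linked above to late endosomes, was listed under ER and Golgi and is not among these 9. At an unadjusted p under 0.05, 0 of the 9 passed in knockdown neurons (against 31.2% of all genes). In control neurons 4 did (Rab7a, Rab7b, Rab9b and Rab12), against 34.5% of all genes. Rab7a, which directs endosomes to lysosomes, averaged 141 ± 4.87 FPKM in KD_TTXwd and 170.1 ± 20.8 FPKM in KD_TTX, and 155 ± 6.67 FPKM in Ctrl_TTXwd and 242 ± 109 FPKM in Ctrl_TTX (SD, n = 3 each). The groups did not overlap, and 1 library of each TTX group, replicate 1, lay above the other 2. Rab9b, a relative of the retromer-linked Rab9a, differed by -0.90 in control neurons (limma adjusted p = 0.0531), and the authors' deposited table lists it as lower (log2 ratio -0.90, q = 0.0026).

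Rab32, Rab7b and Rab38, known from lysosome-related organelles and lysosomal traffic, were listed as higher after withdrawal in control neurons in the authors' deposited table, at log2 ratios of 2.17 (q = 0.0010), 1.78 (q = 0.0010) and 1.19 (q = 0.0190). Rab32 had 13.9, 4.0 and 46.1 FPKM in Ctrl_TTXwd, against 5.84, 5.35 and 3.05 FPKM in Ctrl_TTX. Rab7b had 17.4, 8.09 and 37.4 FPKM in Ctrl_TTXwd, against 8.06, 6.24 and 4.02 FPKM in Ctrl_TTX. The highest value of each belonged to Ctrl_TTXwd replicate 3, and the groups overlapped for Rab32 and not for Rab7b. The limma differences were 1.44 for Rab32 (adjusted p = 0.171) and 1.43 for Rab7b (adjusted p = 0.0733), and without that library they were 0.63 (adjusted p = 0.534) and 0.90 (adjusted p = 0.240).

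The highest microglia marker sum, 2452 FPKM in Ctrl_TTXwd replicate 3, went with the highest levels of Rab32 (46.1), Rab7b (37.4), Rab38 (12.4), Rab27a (12.7) and Rab20 (2.86). The lowest sum, 60.2 FPKM in KD_TTXwd replicate 2, went with the lowest level of Rab32 (2.49 FPKM) but of none of the other 4. Rab7b was lowest in KD_TTX replicate 3, and Rab38, Rab27a and Rab20 were lowest in Ctrl_TTX replicate 3, where the sums were 217 and 253 FPKM. The marker sum ranged over 60.2 to 740.1 FPKM in KD_TTXwd, 137 to 2452 FPKM in Ctrl_TTXwd, 217 to 808 FPKM in KD_TTX and 253 to 1003 FPKM in Ctrl_TTX. All 14 markers were listed above 0, and their part in the Rab results was not tested.

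**Figure D5:**
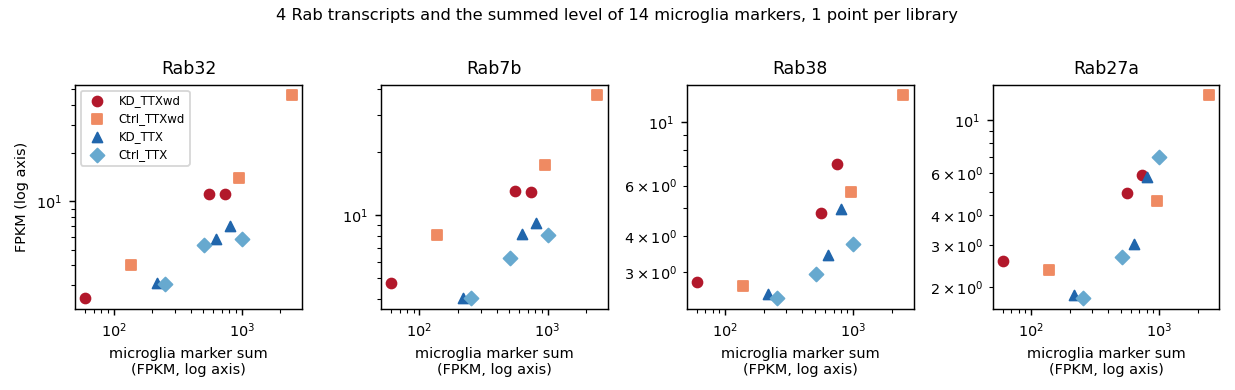
FPKM of Rab32, Rab7b, Rab38 and Rab27a against the summed FPKM of 14 microglia markers, both on log axes, with 1 point per library marked by group. The library at 2452 FPKM of markers, Ctrl_TTXwd replicate 3, is the highest in each panel.

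Knockdown of Grin3a changed no Rab transcript past the limma threshold, either in TTX or after withdrawal. In TTX no gene tested passed, so Grin3a, the targeted gene, did not pass either. Its values there did not overlap, at 4.77 to 9.30 FPKM in KD_TTX and 18.2 to 23.0 FPKM in Ctrl_TTX. The absence of called Rabs in TTX therefore does not show that none responded. In TTX the count was 0 of 51, against 0% of all genes, and at an unadjusted p under 0.05 it was 2 (Rab34 and Rab39a; 3.92%, against 3.85% of all genes). After withdrawal it was 0 of 51, against 0.00936% of all genes, and at an unadjusted p under 0.05 it was 3 (Rab27b, Rab31 and Rab39a; 5.88%, against 11.9%). Members whose groups did not overlap numbered 7 lower and 1 higher in TTX (13.7% and 1.96%, against 7.91% and 3.92% of all genes). After withdrawal there were 6 lower and 3 higher (11.8% and 5.88%, against 9.02% and 10.8%). The median difference was -0.12 in TTX and -0.06 after withdrawal, and -0.01 and -0.02 for all genes.

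Rab39a was lower with knockdown in both states without overlap: its values were 13.7, 13.5 and 12.1 FPKM in KD_TTXwd against 21.0, 19.8 and 14.4 in Ctrl_TTXwd, and 23.6, 25.2 and 25.6 FPKM in KD_TTX against 44.6, 33.0 and 38.0 in Ctrl_TTX. The differences were -0.44 after withdrawal (SE 0.168, limma adjusted p = 0.360) and -0.61 in TTX (SE 0.168, limma adjusted p = 0.936). Without Ctrl_TTX replicate 1 and Ctrl_TTXwd replicate 3 the value after withdrawal was -0.60 and passed (limma adjusted p = 0.0317), the only Rab to do so. These comparisons use the same libraries as the withdrawal comparisons above.

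Rab27b had 7.13, 6.88 and 5.33 FPKM in KD_TTXwd, against 3.31, 4.36 and 2.86 FPKM in Ctrl_TTXwd. The groups did not overlap, and the difference of 0.73 did not pass (SE 0.266, limma adjusted p = 0.349). Rab31, a Rab of Golgi to endosome transport, had 73.7, 58.4 and 68.3 FPKM in KD_TTXwd, against 93.2, 85.3 and 145 FPKM in Ctrl_TTXwd. Its difference of -0.65 did not pass limma (SE 0.209, adjusted p = 0.307) and was -0.42 without Ctrl_TTXwd replicate 3 (adjusted p = 0.310), whereas the authors' deposited table lists it as lower (log2 ratio -0.69, q = 0.0352).

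The authors' deposited table lists 2 members as changed with knockdown in TTX (3.92%, against 2.16% of all genes) and 3 after withdrawal (5.88%, against 7.59%). All of these members were lower, whereas the shares of all genes count both directions. In TTX these are Rab8b (log2 ratio -1.27, q = 0.0018) and Rab9a (log2 ratio -0.76, q = 0.0349), a Rab of late endosome to Golgi traffic. Rab9a had 36.9, 40.7 and 42.0 FPKM in KD_TTX, against 128, 37.5 and 37.2 FPKM in Ctrl_TTX, so the groups overlapped and 1 control library was high. Without that library, Ctrl_TTX replicate 1, the limma difference was 0.09 for Rab9a, against -0.49 with it, and -0.29 for Rab8b, against -0.97 with it. After withdrawal the authors' calls are Rab31, Rab32 (log2 ratio -1.37, q = 0.0010) and Rab7b (log2 ratio -1.03, q = 0.0039). The limma differences of Rab32 and Rab7b were -0.93 (adjusted p = 0.598) and -0.84 (adjusted p = 0.524), and without Ctrl_TTXwd replicate 3 they were -0.11 and -0.31.

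Across knockdown and control, the response to withdrawal differed past the limma threshold for 0 of 51 members (0% of all genes), and at an unadjusted p under 0.05 for 2 (3.92%, against 9.82% of all genes). The smallest p-values belonged to Rab2a, Rab43 and Rab10. Rab2a had 435, 439 and 347 FPKM in KD_TTXwd against 347, 366 and 368 FPKM in KD_TTX, and 275, 351 and 285 FPKM in Ctrl_TTXwd against 542, 358 and 399 FPKM in Ctrl_TTX. The response in knockdown neurons exceeded that in control neurons by 0.66 (SE 0.276, limma adjusted p = 0.492). For Rab43, a Golgi Rab under 10 FPKM, the difference of responses was -1.31 (SE 0.578, limma adjusted p = 0.497), and it was -0.73 without Ctrl_TTX replicate 1, where Rab43 stood at 1.28 FPKM.

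Genes that act on Rabs or bind them were taken from lists of cycle factors, GEFs, GAPs and effectors. These lists were chosen with earlier results of these data known, so their counts only describe these data. For effectors, after withdrawal 6 of 31 tested were lower in knockdown neurons, against 9.22% of all genes, and 11 of 31 were lower in control neurons, against 11.1% of all genes; none rose in either. The knockdown count was 1 without KD_TTXwd replicate 1 and 2 without KD_TTX replicate 2, and the control count was 7 without Ctrl_TTXwd replicate 3. Rims1, the active zone scaffold that binds Rab3, averaged 9.59 ± 1.18 FPKM in KD_TTXwd and 17.4 ± 1.22 FPKM in KD_TTX (SD, n = 3 each; log2 difference -0.80, limma adjusted p = 0.0432). It averaged 7.76 ± 2.21 FPKM in Ctrl_TTXwd and 21.9 ± 7.08 FPKM in Ctrl_TTX (SD, n = 3 each; log2 difference -1.38, limma adjusted p = 0.0055). Rph3a, or rabphilin, which binds Rab3a on vesicles, fell by 1.07 in knockdown neurons (limma adjusted p = 0.0182) and fell by 1.10 in control neurons (limma adjusted p = 0.0141).

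Rilpl1, which binds Rab8 and Rab10, and Mical3, which binds Rab8, fell in both genotypes as well. Rilpl1 averaged 9.20 ± 1.56 FPKM in KD_TTXwd and 22 ± 1.28 FPKM in KD_TTX (SD, n = 3 each; log2 difference -1.18, limma adjusted p = 0.0032). Mical3 fell by 1.04 in knockdown neurons (limma adjusted p = 0.0107) and fell by 1.08 in control neurons (limma adjusted p = 0.0086). Myo5a, the motor myosin Va, did not pass in knockdown neurons and fell by 0.97 in control neurons (limma adjusted p = 0.0084).

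Of 7 cycle factors tested, Rabggtb, the catalytic subunit of the enzyme that attaches the lipid tails, rose in both genotypes. It averaged 90.6 ± 3.14 FPKM in KD_TTXwd and 53.0 ± 17.9 FPKM in KD_TTX, and 77.9 ± 9.80 FPKM in Ctrl_TTXwd and 46.1 ± 5.59 FPKM in Ctrl_TTX (SD, n = 3 each). The log2 differences were 0.81 in knockdown neurons (limma adjusted p = 0.0283) and 0.74 in control neurons (limma adjusted p = 0.0358). Of 23 GEFs, 2 were lower and 0 higher in each genotype: Mon1a, part of the exchange factor for Rab7, and Trappc10 in knockdown neurons, and Rab3ip, an exchange factor for Rab8, and Trappc10 in control neurons. Of 25 GAPs, 2 were lower and 0 higher in each, Tbc1d22b and Tbc1d10a in knockdown neurons and Tbc1d22b and Tbc1d24 in control neurons. Of all genes 9.22% were lower and 4.95% higher in knockdown neurons, and 11.1% lower and 6.61% higher in control neurons. With knockdown in either state, and for the difference between the responses, 0 genes of these 4 lists passed limma. At an unadjusted p under 0.05 effectors numbered 2 of 31 with knockdown in TTX, 10 of 31 with knockdown after withdrawal and 9 of 31 for the difference, against 3.85%, 11.9% and 9.82% of all genes. At that level GAPs numbered 2, 2 and 4 of 25, GEFs 0, 1 and 2 of 23 and cycle factors 0, 1 and 0 of 7, in the same order.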

How the data were processed

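RNA of 12 libraries from cultured rat hippocampal neurons was sequenced, 3 in each of 4 groups. Per the submitters' processing notes, the tools were Trimmomatic, TopHat2, Cufflinks and Cuffdiff and the build was rn5; their versions, what each did and the annotation are not given in the sources used here. Library values are the authors' FPKM, per the file headers, with no statement of the scaling between libraries. Differences between groups are deposited as log2 ratios of the authors' group FPKM values, and the authors deposited a q-value (an adjusted p-value) with each. Low FPKM values were too few to recover whole reads, so the depth, and with it the counting error, is unknown. The table holds 10730 genes, and 1 was dropped, whose library mean and deposited group value disagreed by over 1%.

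Genes reaching 1 FPKM in 3 or more of the 12 libraries were tested in R 4.3.3 with limma 3.58.1 (lmFit and contrasts.fit, then a trended eBayes) on log2(FPKM + 1), with 1 coefficient per group, 8 residual degrees of freedom, two-sided tests, Benjamini-Hochberg adjustment over 10689 genes and a threshold of 0.05. The procedure was tested on simulated data. The pseudocount of 1 makes log2 differences smaller than the true fold for low genes. The 5 contrasts were knockdown in each state, withdrawal in each genotype and the difference between the withdrawal responses.

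Members are the symbols that match the name rule, and the lists of roles, GEFs, GAPs, effectors and markers were chosen with earlier results of these data known. The rule for named genes took every called member, Rab3a, Rab3b, Rab3c, Rab27b, Rab1a, Rab5a, Rab7a, Rab11a and Rab10 always, up to 5 further members called by the authors alone, the 3 smallest p-values for the difference, and up to 4 called genes per list. Rab39a and Rab27b with knockdown, the relatives Rab4b and Rab8a, and the members set beside the microglia markers were chosen after their values were seen. Each role list gave the counts by role, and the marker lists gave summed FPKM per library.

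The replicate numbers were examined as possible pairs by correlating, over genes, how far libraries of the same number deviate from their groups. Control and knockdown libraries in TTX gave correlations of 0.617, 0.436 and 0.667, so there the numbers were taken as pairs, on the data and not on the labels. The main fit held no term for these pairs. No other comparison had every pair above 0.1. The alternatives were another pseudocount, filter or scaling, a correction for locus span, the replicate block, only the libraries compared, and leaving out libraries. Start regions are RefSeq sequences on GRCr8, matched by symbol or transcript. Plots used matplotlib 3.10.9 under Python 3.11.15.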

Additional observations from a re-analysis of the deposited data

How the results depend on the processing

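Counts of called Rabs after withdrawal depended on single libraries. With 1 library left out they ran over 1 to 8 in knockdown neurons and 2 to 13 in control neurons, against 2 and 7, and stayed at 0 in the other 3 contrasts. Called effectors ran over 1 to 9 in knockdown neurons and 7 to 10 in control neurons, against 6 and 11. With only the 6 libraries of a comparison, 8 Rabs and 8 effectors passed in knockdown neurons, and 0 Rabs and 0 effectors in control neurons, in fits that have fewer residual degrees of freedom. Leaving out Ctrl_TTX replicate 1 and Ctrl_TTXwd replicate 3 together, which was chosen after seeing the data, as were all alternatives for the effectors, gave 12 Rabs and 12 effectors in knockdown neurons, 3 Rabs and 8 effectors in control neurons, and 1 Rab with knockdown after withdrawal.

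With the replicate number as a block, 2 Rabs passed in knockdown neurons and 8 in control neurons after withdrawal, and 0 in the other contrasts. That block fitted each replicate number once across all 4 groups, and no fit paired the TTX libraries alone. It therefore cannot show what pairing would change in TTX. In the remaining comparisons not every pair correlated above 0.1, and the libraries share only a number. With median ratios, quantile normalization, the span correction, a pseudocount of 0.1, or either other filter (none, or a mean of 5 FPKM), each count of called Rabs stayed within 1.5 times. The 22 to 24 members followed singly in each contrast, and not all 51, gave 2250 alternative values that kept their side of the threshold. Another 44 lost a call, 24 gained one and 0 turned a called direction. The 2250 include values that changed sign where neither fit passed. With knockdown in TTX, for example, Rab9a was at -0.49 in the main fit and at 0.09 without Ctrl_TTX replicate 1. The unknown depth limits what can be said of members under 10 FPKM.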
